A study of Mus musculus with 16 samples.

Results

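A set of 6 genes of splenic plasmacytoid dendritic cells (pDCs) were described here: Jade1, Prodh, Mpc1, Scrn1 and Arhgef10l, which had among the largest falls in pDCs lacking Trim33, and Mpc2, added as the partner of Mpc1. They were 6 of the 17128 genes listed for pDCs and of the 17721 listed for conventional dendritic cells (cDCs). The first 5 were chosen by their change in pDCs, so that change is given as a description with no test. Mpc2 was added only as a partner, and the rule of choice named no value in cDCs. Earlier results of these data were known when the genes were chosen, so the cDC values may not be independent of the choice. The 16 RNA-seq libraries came from sorted splenic DCs of 6- to 8-week-old C57BL/6 mice. WT animals carried the Trim33 fl/fl alleles without Cre, and cKO animals carried Trim33 fl/fl with Itgax-Cre, a transgene that uses the promoter of the CD11c gene and so acts in CD11c-expressing cells. There were 3 WT and 3 cKO pDC libraries, 2 WT and 2 cKO cDC1 libraries, and 3 WT and 3 cKO cDC2 libraries. Each library was a biological repeat pooled from several mice, with more cKO than WT animals in a pool.

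By way of background, pDCs are the DC subset known for type I interferon secretion, cDC1s for presenting antigen to CD8 T cells and cDC2s for presenting antigen to CD4 T cells. TRIM33 is a chromatin-binding protein of the tripartite motif family with E3 ubiquitin ligase activity. Mpc1 and Mpc2 encode the subunits of the mitochondrial pyruvate carrier, which works as a complex of both and brings pyruvate from the cytosol into the mitochondrial matrix. Prodh encodes proline dehydrogenase, the mitochondrial enzyme that takes the first step of proline breakdown. Jade1 encodes a PHD-finger scaffold of the HBO1 histone acetyltransferase complex. Arhgef10l encodes a guanine nucleotide exchange factor, and Scrn1 encodes secernin 1, a protein linked to exocytosis in mast cells.

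Levels are in TPM (a share of all transcripts in the library, corrected for transcript length), and changes are log2 fold changes of TPM + 1, cKO over WT, with a standard error (SE) from limma. A gene was called when its Benjamini-Hochberg adjusted p over all tested genes was at most 0.01 and its log2 fold change was at least 0.5 in size. From the steps between low values, sequencing depth was estimated at 18.1 to 20.2 M reads a library, at which 3 reads on a transcript of 2000 bases correspond to 0.136 to 0.178 TPM. Trim33 itself was at 20.6, 23.8 and 22.3 TPM in the WT pDC libraries and at 12.6, 16.5 and 11.7 TPM in the cKO pDC libraries. It was at 15.5 and 18.2 TPM in WT cDC1s and 7.88 and 7.71 TPM in cKO cDC1s, and at 20.6, 18.2 and 17.2 TPM in WT cDC2s and 7.93, 7.13 and 8.07 TPM in cKO cDC2s. The cKO mean was 61.2% of the WT mean in pDCs, 46.3% in cDC1s and 41.3% in cDC2s, and in none of the 3 subsets did the ranges overlap. These are RNA levels of the whole gene, and they do not measure how far the gene was deleted. The fall was called in cDC1s (−1.02, adjusted p 0.000349) and cDC2s (−1.17, adjusted p 0.000126), and in pDCs it was not (−0.68, adjusted p 0.0301), while with the replicate number as a block it was (adjusted p 0.00361). The labelled pDCs carried their markers: the summed level of 10 pDC genes such as Siglech and Tcf4 was 17100 to 17462 TPM in WT and 16183 to 16984 TPM in cKO libraries. None of the 10 was called (4 at an unadjusted p under 0.05), and the same sum was at most 424 TPM in any cDC library. Of 8 markers each, 7 cDC1 markers were called higher and 8 cDC2 markers lower in WT cDC1s against WT cDC2s.

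In pDCs, the 5 chosen genes were each lower in every cKO library than in any WT library. Jade1 was at 49.8, 51.5 and 48.6 TPM in WT pDCs and at 19.5, 19.1 and 15.8 TPM in cKO pDCs, so that 36.3% of the WT mean remained. Prodh was at 21.3, 24.2 and 24.2 TPM in WT and 8.37, 9.26 and 7.97 TPM in cKO pDCs (36.7% of the WT mean). These genes had the lowest remaining shares of the 6. Mpc1, the most abundant of the 6 genes in pDCs, was at 186, 173 and 177 TPM in WT and 78.1, 79.2 and 82.1 TPM in cKO pDCs (44.7%). Scrn1 was at 28.3, 23.9 and 31.1 TPM in WT and 11.2, 11.8 and 13.1 TPM in cKO pDCs (43.2%). Arhgef10l was at 33.9, 33.0 and 36.2 TPM in WT and 17.5, 15.3 and 15.7 TPM in cKO pDCs (47.1%). The log2 fold changes were −1.42 (SE 0.09) for Jade1, −1.35 (SE 0.10) for Prodh, −1.15 (SE 0.05) for Mpc1, −1.14 (SE 0.11) for Scrn1 and −1.04 (SE 0.08) for Arhgef10l. Mpc1 combined the highest level with the smallest SE.

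**Figure D1:**
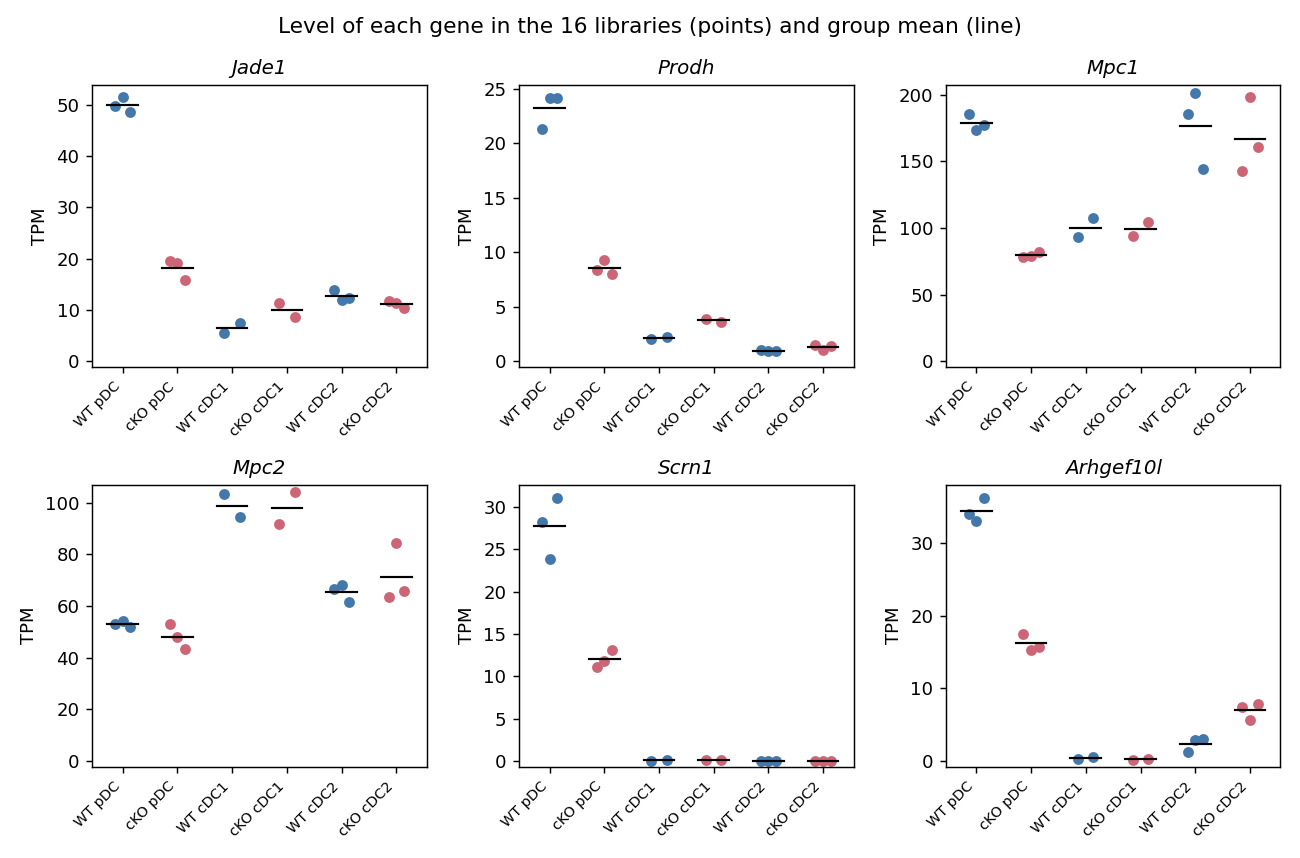
Level in TPM (y axis, from 0, with its own scale in each panel) of the 6 genes in the 16 libraries, grouped by subset and genotype on the x axis (blue points, WT; red points, cKO; black lines, group means). In pDCs the WT and cKO points are apart for 5 genes and overlap for Mpc2, and Scrn1 and Arhgef10l are near 0 in cDC1s.

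Mpc2 behaved otherwise. It was at 53.0, 54.4 and 51.9 TPM in WT pDCs and at 53.1, 47.9 and 43.6 TPM in cKO pDCs. The ranges overlapped, since 1 cKO library lay among the WT libraries, and 90.8% of the WT mean remained. Its log2 fold change was −0.14 (95% confidence interval −0.33 to 0.05, adjusted p 0.366 from limma), which did not pass the test.

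These 5 genes were not exactly the leading falls. Of 11299 genes tested in pDCs, 27 (0.239%) were called lower and 92 (0.814%) higher, and for 16.7% of tested genes all cKO pDC values were under all WT pDC values. In order of fall among the 27, Jade1 held place 3, Prodh 4, Mpc1 5, Scrn1 6 and Arhgef10l 8. Ahead of or among them were Apol7c (−2.36), a gene with close paralogs whose reads may be shared, the chemokine receptor gene Ccr6 (−1.43) and F5 (−1.13), which encodes coagulation factor V. These 3 were singled out here after their values were seen, and their WT means were 7.98, 5.96 and 6.44 TPM, below the WT mean of each of the 6 genes. The next called genes after Arhgef10l were Lysmd2 (−1.0) and Frmd4b (−0.98), and 10 genes that were not called fell by at least as much as Arhgef10l.

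Levels of cell cycle genes and of some markers of other cell types also differed between the pDC genotypes. Itgam, which encodes CD11b and is a cDC2 marker, had a WT mean of 1.81 ± 0.606 TPM and a cKO mean of 20.3 ± 4.70 TPM (SD over 3 libraries), a rise of 2.92 on the log2 scale (adjusted p 0.000952 from limma). It was the only called gene of the 6 tested cDC2 markers. Over 8 genes these markers summed to 2166 to 2260 TPM in WT and 1965 to 2094 TPM in cKO pDCs. In WT cDC2s the same sum was 1844 to 2118 TPM, so it does not separate cDC2s from pDCs. None of the 5 tested cDC1 markers was called (3 at an unadjusted p under 0.05). Cell cycle genes were higher in cKO pDCs, with 8 of 14 called higher and a summed level of 267 to 337 TPM in WT and 449 to 583 TPM in cKO libraries. Neutrophil genes summed to 8.50 to 28.7 TPM in WT and 28.5 to 130 TPM in cKO pDCs. Monocyte and macrophage genes summed to 4893 to 5578 TPM in WT and 5763 to 5934 TPM in cKO pDCs. In either list 0 genes were called (2 of 4 and 7 of 9 tested genes at an unadjusted p under 0.05). The monocyte and macrophage list includes Ly6c2, which the paper counts among pDC-associated genes. That list summed to only 416 to 667 TPM in WT cDC1s and 1371 to 1893 TPM in WT cDC2s. Its level in pDCs is therefore not a measure of monocyte or macrophage RNA. T cell genes summed to 6.85 to 9.45 TPM in WT and 14.2 to 17.8 TPM in cKO pDCs (0 of 2 tested genes called, 2 at an unadjusted p under 0.05), and of the neutrophil, monocyte and cell cycle lists no gene was at 0 in all libraries of a pDC group. The part of these lists in the falls of the 5 genes was not tested. In bulk samples, fewer cells of a type and less RNA per cell cannot be told apart.

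The promoter windows of RefSeq on GRCm38.p6, the assembly named mm10, held 11 annotated starts for the 6 genes. The 250 bases upstream of a start are printed for Scrn1, listed near 0 in all cDC libraries, for Arhgef10l, which was low in cDC1s, and for the first start of Mpc1, which was high in all DC subsets. Capitals mark matches to the E-box, CANNTG, the letters that E proteins such as the pDC regulator TCF4 recognize. The letters GGAAGT (either strand), a longer form of the ETS core GGAA, were also sought and were not found in these 3. The core GGAA alone was not counted.
Scrn1, chr6:54566383-54566632, minus strand: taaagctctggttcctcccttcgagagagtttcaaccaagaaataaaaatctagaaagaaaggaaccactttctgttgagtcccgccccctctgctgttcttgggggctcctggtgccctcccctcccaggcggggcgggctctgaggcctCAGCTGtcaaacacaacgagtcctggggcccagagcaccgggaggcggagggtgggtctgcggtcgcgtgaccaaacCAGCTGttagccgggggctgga
Arhgef10l, chr4:140665888-140666137, minus strand: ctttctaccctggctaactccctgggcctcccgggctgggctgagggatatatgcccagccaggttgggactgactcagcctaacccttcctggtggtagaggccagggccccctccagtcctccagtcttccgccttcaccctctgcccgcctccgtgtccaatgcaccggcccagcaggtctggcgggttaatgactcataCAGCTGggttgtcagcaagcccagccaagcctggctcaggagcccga
Mpc1, chr17:8283537-8283786, plus strand: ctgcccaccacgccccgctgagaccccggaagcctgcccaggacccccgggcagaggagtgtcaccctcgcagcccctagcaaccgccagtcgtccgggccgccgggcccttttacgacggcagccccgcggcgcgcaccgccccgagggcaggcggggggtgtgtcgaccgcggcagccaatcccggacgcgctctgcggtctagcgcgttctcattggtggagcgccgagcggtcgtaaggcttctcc
Scrn1 held 2 E-boxes and Arhgef10l 1, each with the letters CAGCTG. By the gene coordinates given below, part of both windows lies inside the gene, and these matches are in that part. They are thus upstream only of the start used. The first Mpc1 window held no E-box, while the window of its second start held 2 of other letters. CAGCTG, a form of the E-box that reads the same on both strands, was singled out after these windows were seen. It was in 3 of the 11 windows, of which 2 were overlapping Arhgef10l windows, and in 13.0% of all 32851 windows of this length. Any E-box was in 8 of the 11 windows and in 66.2% of all windows. The letters GGAAGT were in 1 of the 11, that of Prodh, and in 19.7% of all. Among the windows not printed, that of Prodh, which was higher in WT pDCs than in WT cDCs, held 0 E-boxes. The Jade1 windows held 0 to 3, and Jade1 was likewise higher in WT pDCs. The window of Mpc2, which was lower in WT pDCs than in WT cDCs, held 1. The form singled out above was in none of these. A link between E-boxes and the level in pDCs was not tested. A match in these letters is a description of the sequence and not a measured binding site.

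In cDC1s, none of the 5 genes that passed the filter of a mean of 1 TPM over the cDC libraries was called with limma (2 at an unadjusted p under 0.05). The background was 15.8% of 11411 tested genes called higher and 6.56% called lower. Jade1 was at 5.50 and 7.49 TPM in WT cDC1s and at 11.3 and 8.66 TPM in cKO cDC1s. Both cKO libraries were above both WT libraries, the opposite of its direction in pDCs, and limma gave 0.55 on the log2 scale (SE 0.17, adjusted p 0.0241). Prodh was at 2.09 and 2.25 TPM in WT and 3.89 and 3.60 TPM in cKO cDC1s, again with no overlap (0.58, SE 0.16, adjusted p 0.0145). Such an order of the 4 libraries was common, since every cKO cDC1 library lay above every WT cDC1 library for 52.1% of tested genes.

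The median log2 fold change of all genes in cDC1s was 0.17, and it was 0.02 under median-of-ratios scaling, where Jade1 was at 0.40 and Prodh at 0.46 with neither called. The summed pDC markers moved in cDC1s as well, from 212 to 241 TPM in WT to 326 to 335 TPM in cKO libraries, with 2 of 9 tested markers called higher and 2 lower, and their part in these values was not tested. Mpc1 was at 93.2 and 107 TPM in WT and 93.8 and 104 TPM in cKO cDC1s (−0.01, 95% confidence interval −0.42 to 0.39, adjusted p 0.961). Mpc2 was at 103 and 94.6 TPM in WT and 91.8 and 104 TPM in cKO cDC1s (−0.02, 95% confidence interval −0.33 to 0.30, adjusted p 0.940). For both carrier genes the ranges overlapped in cDC1s.

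Arhgef10l was low in cDC1s, at 0.25 and 0.59 TPM in WT and 0.21 and 0.30 TPM in cKO libraries, values that rest on few reads (−0.17, SE 0.29, adjusted p 0.670). Scrn1 was not tested in cDCs, because its mean failed the filter. It was listed at 0.06 and 0.11 TPM in WT cDC1s, at 0.12 and 0.11 TPM in cKO cDC1s, at 0 in the 3 WT cDC2 libraries and at 0, 0 and 0.06 TPM in the cKO cDC2 libraries. All these values lie under the level of 3 reads on a 2000-base transcript, so no fold change of Scrn1 was detectable in cDCs at this depth.

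**Figure D2:**
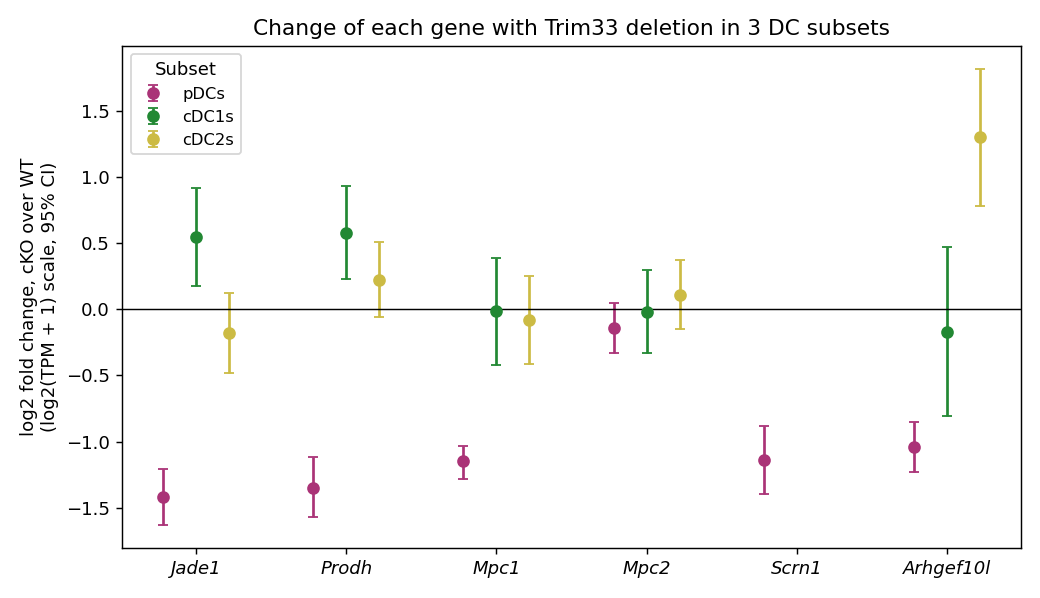
Log2 fold change of cKO over WT on the log2(TPM + 1) scale (y axis) for the 6 genes (x axis) in pDCs, cDC1s and cDC2s, with 95% confidence intervals from limma; Scrn1 was not tested in cDCs. The pDC points of the 5 chosen genes lie between −1.42 and −1.04, and Arhgef10l in cDC2s lies at 1.30.

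In cDC2s, Arhgef10l moved up and was the 1 gene of the 5 tested that was called, where 3.59% of tested genes were called higher and 3.56% lower. It was at 1.19, 2.84 and 3.01 TPM in WT cDC2s and at 7.43, 5.67 and 7.91 TPM in cKO cDC2s. Every cKO library was above every WT library, which held for 16.3% of tested genes, and limma put the rise at 1.30 on the log2 scale (SE 0.23, adjusted p 0.00484). In the same libraries monocyte and macrophage genes summed to 1371 to 1893 TPM in WT and 2668 to 3479 TPM in cKO (2 of 9 called higher), and their part in the rise was not tested, whereas the pDC markers summed to 354 to 414 TPM in WT and 339 to 424 TPM in cKO. The call was lost without cKO cDC2 replicate 1 (adjusted p 0.0192) or 3 (0.0262), without cKO cDC1 replicate 1 (0.0106) or 2 (0.0104), and with no filter on low values (0.0122) or a pseudocount of 0.1 (0.0172).

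The other tested genes were not called in cDC2s. Jade1 was at 13.9, 11.9 and 12.3 TPM in WT and 11.7, 11.4 and 10.3 TPM in cKO cDC2s, with no overlap and a log2 fold change of −0.18 (adjusted p 0.388). For 19.2% of tested genes all cKO cDC2 values were likewise under all WT cDC2 values. Prodh was at 1.07, 0.93 and 0.95 TPM in WT and 1.52, 1.06 and 1.38 TPM in cKO cDC2s (0.22, adjusted p 0.249). Mpc1 was at 185, 201 and 144 TPM in WT and 142, 198 and 160 TPM in cKO cDC2s (−0.08, adjusted p 0.740). Mpc2 was at 66.6, 68.2 and 61.4 TPM in WT and 63.4, 84.4 and 65.7 TPM in cKO cDC2s (0.11, adjusted p 0.540). For these last 3 genes the ranges overlapped.

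Whether an effect differed between cDC1s and cDC2s was tested as the difference of the 2 genotype effects, which was called for 2.56% of tested genes. None of the 5 genes was called (2 at an unadjusted p under 0.05). The difference was −1.47 (SE 0.37, adjusted p 0.0348) for Arhgef10l, 0.73 (SE 0.21, adjusted p 0.0545) for Jade1, 0.36 for Prodh, 0.07 for Mpc1 and −0.13 for Mpc2. The pDC values were deposited in a table of their own, so pDC and cDC effects were set side by side and their difference was not tested.

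The levels separated the genes in WT cells. In WT cDC1s against WT cDC2s, where 10.9% of tested genes were called higher and 20.8% lower, all 5 tested genes were called. Prodh (0.68, adjusted p 0.00293) and Mpc2 (0.59, adjusted p 0.00372) were higher in cDC1s, and Jade1 (−0.88, adjusted p 0.000847), Mpc1 (−0.80, adjusted p 0.00276) and Arhgef10l (−1.20, adjusted p 0.00359) were higher in cDC2s. These calls depended on the WT cDC1 libraries, of which there were only 2: without WT cDC1 replicate 1, 0 of the 5 were called (adjusted p 0.0123 to 0.0367) with no change of direction, and without replicate 2, 3 were called. The count fell to 1 with the replicate number as a block and to 3 with quantile normalization, and Mpc1 was not called under median-of-ratios scaling (−0.61, adjusted p 0.0318).

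Between the tables of pDCs and cDCs, made separately, values are set side by side without a test. The WT pDC mean of Jade1 was 7.69 times that of WT cDC1s and 3.93 times that of WT cDC2s. For Prodh the ratios were 10.7 and 23.6, and for Arhgef10l 81.8 and 14.6, the first over a cDC1 level of few reads. In the 4 genes Jade1, Prodh, Scrn1 and Arhgef10l every WT pDC library lay above every WT cDC library, which held for 39.3% of 11190 genes. In these 4 every cKO pDC library also lay above every cDC library of either genotype, an order whose share over all genes was not counted. Thus Jade1 had its order of group means as WT pDC, cKO pDC, WT cDC2, cKO cDC2, cKO cDC1 and WT cDC1, in which only the neighbours cKO cDC2 and cKO cDC1 overlapped. Mpc1 was unlike these 4. Its WT pDC mean of 179 TPM stood beside 177 TPM in WT cDC2s and 100 TPM in WT cDC1s, and its cKO pDC mean of 79.8 TPM was the lowest of the 6 groups, below every library of both cDC subsets. Mpc2 ran in the other order, with WT cDC1s at 98.9 TPM, WT cDC2s at 65.4 TPM and WT pDCs at 53.1 TPM, with no overlap between these 3 groups. For these orders of Mpc1 and Mpc2 no share over all genes was counted.

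The balance of the carrier subunits followed from these levels. The ratio of Mpc1 to Mpc2 TPM was 3.37 ± 0.166 in WT pDCs and 1.67 ± 0.207 in cKO pDCs (SD, n = 3 each), with library values of 3.18 to 3.51 against 1.47 to 1.89. In cDC1s it was 1.02 ± 0.164 in WT and 1.01 ± 0.0122 in cKO libraries (SD, n = 2 each). In cDC2s it was 2.69 ± 0.313 in WT and 2.35 ± 0.0978 in cKO libraries (SD, n = 3 each), and the ranges of 2.34 to 2.95 and 2.25 to 2.44 overlapped. The pDC difference is again a description, since Mpc1 was chosen for its fall there. These are RNA levels, and the proteins were not analysed here.

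**Figure D3:**
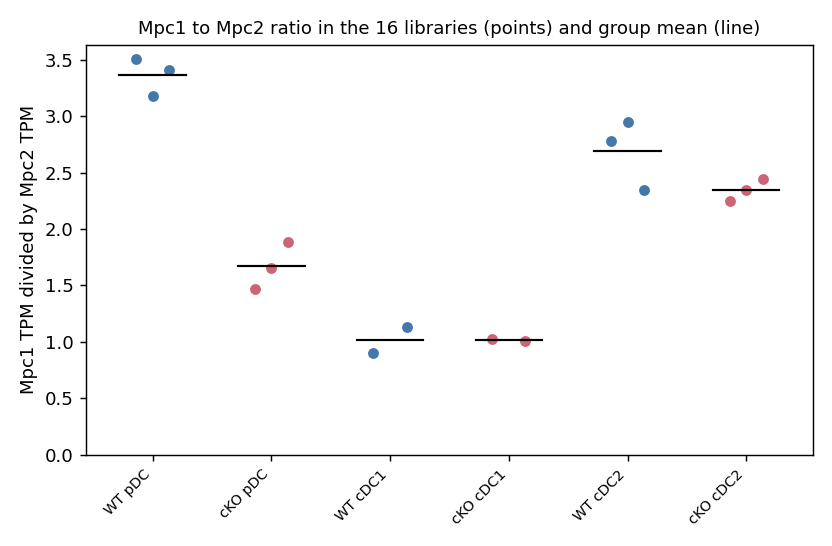
Ratio of Mpc1 to Mpc2 TPM (y axis, from 0) in the 16 libraries by group (x axis; blue points, WT; red points, cKO; black lines, group means). The cKO pDC libraries (1.47 to 1.89) lie between the WT pDC libraries (3.18 to 3.51) and the cDC1 libraries near 1.

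Of 5 tested paralogs of the chosen genes, 0 were called in pDCs with limma (1 at an unadjusted p under 0.05). Of all tested genes, 0.239% were called lower there and 0.814% higher. Arhgef10, the closest relative of Arhgef10l, was likewise high in pDCs, at 77.2, 75.1 and 76.8 TPM in WT and 71.9, 64.8 and 71.0 TPM in cKO libraries (−0.14, adjusted p 0.246), and it was between 9.90 and 16.9 TPM in the cDC libraries. Jade2, another scaffold of the HBO1 complex, was at 36.9, 38.7 and 36.1 TPM in WT and 29.9, 29.6 and 26.3 TPM in cKO pDCs (−0.37, adjusted p 0.0379), a fall without overlap that was not called. In cDC2s Jade2 fell from 43.5, 37.0 and 50.6 TPM to 24.7, 18.2 and 21.8 TPM (−0.99, adjusted p 0.00128) and was called, and in cDC1s it was not called (−0.44, adjusted p 0.0571) except under median-of-ratios scaling (−0.61, adjusted p 0.008) and quantile normalization (−0.58, adjusted p 0.00872). The remaining tested paralogs had pDC log2 fold changes of −0.12 for Jade3, 0.00 for Scrn2 and −0.33 for Scrn3, and Prodh2 did not pass the filter.

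Some genes beside the chosen 5 on the chromosome also fell in pDCs. Prodh lies on chromosome 16 at 18071726 to 18089283 on the minus strand, and Dgcr6, on the plus strand at 18052860 to 18071633, ends 92 bases from it (mm10). Dgcr6 was at 39.6, 42.2 and 34.4 TPM in WT and 19.2, 20.9 and 19.1 TPM in cKO pDCs, and was called lower (−0.93, SE 0.09, adjusted p 0.00264). The call was lost without WT pDC replicate 1 or 3 or cKO pDC replicate 1 or 3 (adjusted p 0.0102 to 0.0123). In cDC1s it was at 9.72 and 9.72 TPM in WT and 13.2 and 12.9 TPM in cKO libraries, without overlap as for Prodh, and it was not called (0.39, adjusted p 0.0906). The sources used here do not say whether reads were counted by strand, so reads near the converging ends of Prodh and Dgcr6 cannot be told apart. On the other side of Prodh the nearest tested gene was Zdhhc8 (−0.04), and the other 6 tested genes within 200 kb were between −0.15 and 0.32 with none called.

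Mpc1 lies on chromosome 17 at 8283787 to 8297667. Ccr6, 25267 bases away, was at 7.19, 4.40 and 6.29 TPM in WT and 1.76, 1.73 and 1.19 TPM in cKO pDCs (−1.43, SE 0.19, adjusted p 0.00806). This call was lost without WT pDC replicate 1 or 3 or any 1 of the 3 cKO pDC libraries (adjusted p 0.0199 to 0.0507). Ccr6 was highest in cDC2s, at 39.5, 43.6 and 46.3 TPM in WT and 28.7, 27.8 and 29.1 TPM in cKO libraries (−0.58, adjusted p 0.0145, not called). The other tested genes within 200 kb of Mpc1 were Sft2d1 (−0.30, adjusted p 0.0304), Cep43 (−0.79, adjusted p 0.0273) and Rnaset2a (−0.52, adjusted p 0.00276), of which only Rnaset2a was called and is uncertain because a near-identical copy, Rnaset2b, can share its reads. All 4 genes around Mpc1 thus had negative values in pDCs, where the median of all genes was −0.05. Mpc1 itself had no change called in cDCs. Its neighbours moved there too: from WT to cKO means, Rnaset2a went from 455 to 192 TPM in cDC1s and from 223 to 220 TPM in cDC2s. Cep43 went from 20.4 to 15.2 TPM and from 20.4 to 13.3 TPM, and Sft2d1 from 93.0 to 83.6 TPM and from 104 to 90.9 TPM. Ccr6 went the other way in cDC1s, from 1.27 to 1.75 TPM.

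Over the 5 chosen genes together, 19 tested genes lay within 200 kb, 3 of them were called lower against 0.239% of all genes, and 14 had negative values. The 200 kb window was chosen after values were seen, so these counts are a description with no test. The called genes were Dgcr6, Ccr6 and Rnaset2a, each with the limits given above. The median of all genes in pDCs was −0.05. Around Jade1 (chromosome 3, 41555734 to 41616864) Sclt1 (−0.26) and D3Ertd751e (−0.70, adjusted p 0.0345) were not called, and around Scrn1 (chromosome 6, 54474794 to 54566517) Mturn (−0.24) was not. Around Arhgef10l (chromosome 4, 140514485 to 140666007) the 4 tested genes lay between −0.10 and 0.36, and around Mpc2 (chromosome 1, 165461260 to 165481218) the 3 tested genes lay between −0.13 and 0.05, including Dcaf6 (−0.09), which ends 353 bases from it.

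**Figure D4:**
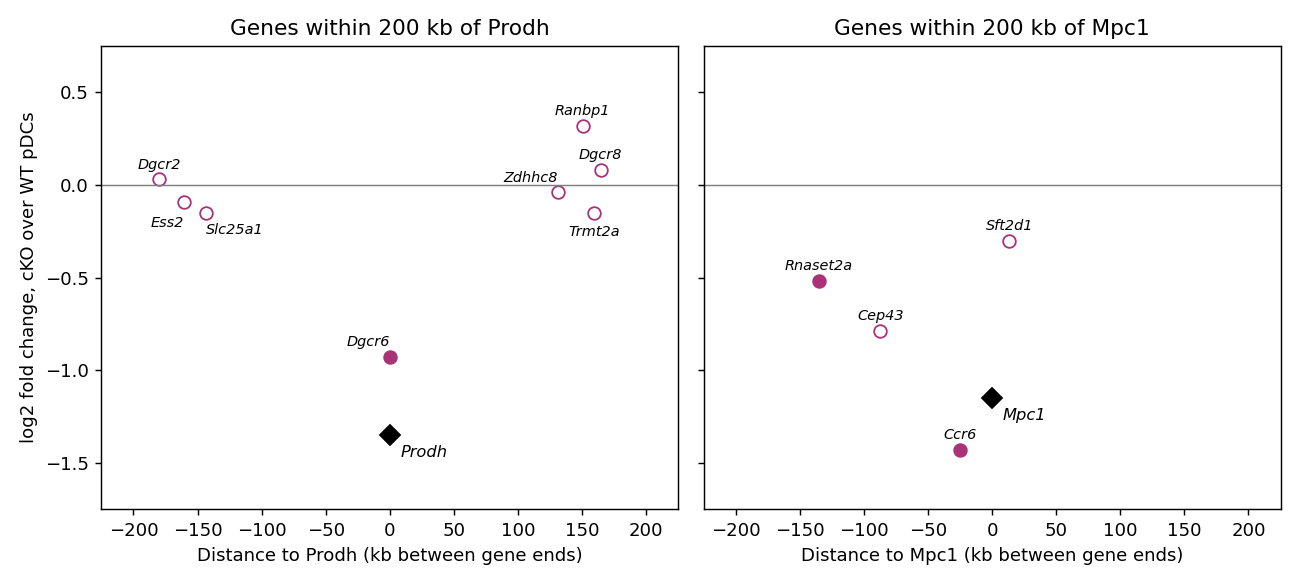
Log2 fold change of cKO over WT pDCs (y axis) of tested genes within 200 kb of Prodh (left) and Mpc1 (right) against the distance between gene ends in kb (x axis; negative, lower coordinate; filled circles, called; open circles, not called; black diamond, the gene itself). Beside Prodh only Dgcr6 (−0.93) is filled, and beside Mpc1 Ccr6 (−1.43) and Rnaset2a (−0.52) are.

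Genes that act with the pyruvate carrier, Prodh or Jade1 are described by list, with the members themselves left out. In pDCs no gene of the 5 lists given here was called with limma. Only 0.239% of all tested genes were called lower there and 0.814% higher. Counts of 0 in lists of this size are near these shares. Pyruvate entry and use, with pyruvate dehydrogenase, its kinases, lactate dehydrogenases and monocarboxylate carriers, had 0 of 21 tested genes called (2 at an unadjusted p under 0.05) and a median of −0.01, beside −0.05 for all genes. The TCA cycle had 0 of 16 (2 at an unadjusted p under 0.05, median 0.03), and other mitochondrial carriers of the Slc25 family had 0 of 24 (4 at an unadjusted p under 0.05, median −0.04). Proline metabolism had 0 of 14 (4 at an unadjusted p under 0.05, median −0.06), including Aldh4a1, the enzyme that follows Prodh in proline breakdown, at −0.34 (adjusted p 0.0715). The HBO1 complex and its relatives had 0 of 11 (1 at an unadjusted p under 0.05, median −0.04). In pDCs the falls of Mpc1, Prodh and Jade1 stood beside medians of −0.01, −0.06 and −0.04 in the lists they belong with. These genes were chosen for their falls, so a larger fall than the list median follows from the choice.

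In cDC1s, where no member was called, the same lists had called genes, all of them higher. Pyruvate entry and use had 8 of 22, the largest being Slc16a7 (0.76), a monocarboxylate carrier gene, the pyruvate kinase gene Pkm (0.73), Dlat (0.70) and Pdha1 (0.65) of the pyruvate dehydrogenase complex, Ldha (0.68) and Me2 (0.63). The TCA cycle had 6 of 16, led by Idh3a (1.06), and other mitochondrial carriers had 6 of 24, led by Slc25a12 (1.11), an aspartate and glutamate carrier gene. Proline metabolism had 3 of 15, among them Aldh18a1 (0.81) of proline synthesis and the dipeptidase gene Pepd (0.60). The HBO1 complex had 1 of 11, Ing5 (0.60). Beside these counts stand the 15.8% of all tested genes called higher in cDC1s, a share that 3 of 15 was near and that 1 of 11 was under. The medians were 0.34, 0.44, 0.21, 0.24 and 0.22 in this order of lists, beside 0.17 for all genes. Under median-of-ratios scaling the counts fell to 4 for pyruvate, 1 for the TCA cycle and 1 for proline metabolism, and cell cycle genes, which summed to 656 to 870 TPM in WT and 1812 to 1840 TPM in cKO cDC1s, moved beside them. Without cKO cDC1 replicate 1 the counts were 3 for pyruvate, 1 for the TCA cycle, 1 for the carriers and 0 for proline metabolism. They were 4, 2, 1 and 3 without WT cDC1 replicate 1 and 4, 2, 2 and 1 without cKO cDC1 replicate 2, proline metabolism had 0 without WT cDC1 replicate 2, and Ing5 was lost without any 1 of the 4 cDC1 libraries.

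In cDC2s, where 3.59% of all tested genes were called higher and 3.56% lower, the lists had few called genes. In pyruvate entry and use, Pdk3 (0.70), a pyruvate dehydrogenase kinase gene, and Pkm (0.53) were higher and Ldhb (−0.99), which encodes a lactate dehydrogenase subunit, was lower. Slc25a24 (0.76) of the carriers and Pycrl (0.64) of proline synthesis were higher, and Jade2 was lower as above. No gene was called of the TCA cycle (5 of 16 at an unadjusted p under 0.05), and the medians of the 5 lists lay between −0.17 and 0.16 beside −0.03 for all genes. The pyruvate count fell to 1 without WT cDC2 replicate 1 or cKO cDC2 replicate 3. Slc25a24 was lost without cKO cDC2 replicate 1 or 3, and Pycrl without any 1 of 7 libraries (WT cDC2 replicates 1 and 3, both cKO cDC1 and all cKO cDC2 replicates).

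**Figure D5:**
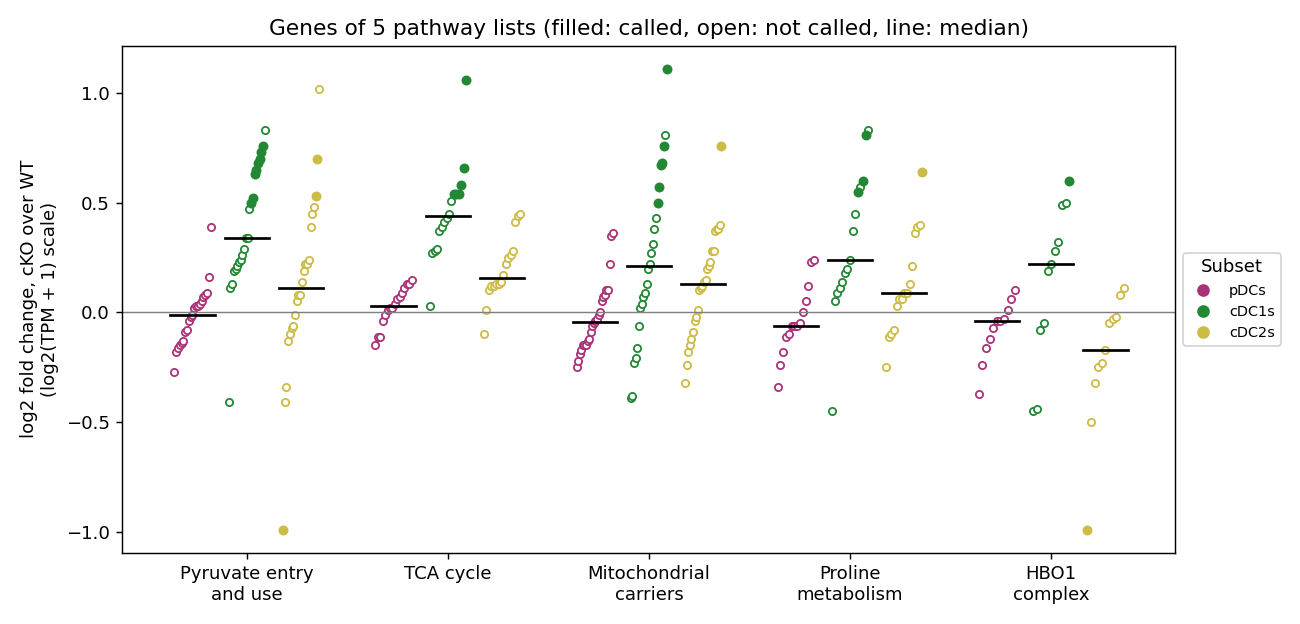
Log2 fold change of cKO over WT on the log2(TPM + 1) scale (y axis) for every tested gene of 5 pathway lists (x axis) in pDCs, cDC1s and cDC2s (filled points, called; open points, not called; black lines, medians). No pDC point is filled, and the cDC1 points of the pyruvate and TCA lists lie mostly above 0.

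The genes whose levels ran most like each member were ranked by Pearson's r of log2(TPM + 1) over the 16 libraries, among 10619 genes tested in both tables. These r values describe libraries that share cell types and come from 2 tables, so no test is given. Scrn1 ran with Cdc14b (0.993), Cdip1 (0.991) and Gne (0.991), and Prodh with its neighbour Dgcr6 (0.985), Ecd (0.972) and Zdhhc1 (0.972). Arhgef10l ran with Ptpn1 (0.975), Ebpl (0.969) and B3gnt8 (0.968), and Jade1 with Snrk (0.951), Vps13a (0.939) and Disp1 (0.932). The leading values were lower for Mpc1, which ran with Scamp1 (0.908), Morc3 (0.891) and Caap1 (0.813), than for its partner Mpc2, which ran with Cyb5a (0.959), Lrrc40 (0.956) and Ccdc12 (0.956). The lists of Mpc1 and Mpc2 shared no gene.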

How the data were processed

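Splenic DCs of both genotypes were sorted and their RNA was sequenced as single-end reads. The authors removed low-quality reads with SOAPnuke, mapped reads with HISAT2 2.0.4 (mm10) and Bowtie2 2.2.5, and estimated expression with RSEM 1.2.12. The deposited values, in 1 table each for pDCs and cDCs, are TPM values, used for all results, and FPKM values, used as an alternative. The study tested read counts. The values used here are not counts, so limma 3.58.1 (R 4.3.3) was run on log2(TPM + 1) for genes whose TPM averaged 1 or more, with eBayes and a mean-variance trend, two-sided, and Benjamini-Hochberg adjustment over all tested genes. This scale understates changes of low genes. The 6 pDC libraries were fitted alone and the 10 cDC libraries together as 4 group means. Gene IDs were matched to symbols through RefSeq (GRCm38.p6): 17079 of 17128 in pDCs and 17667 of 17721 in cDCs. The procedure was tested on simulated data.

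The members, lists and tests were chosen with earlier results of these data known. Named genes were the 6 members, Trim33, paralogs, up to 6 called genes of each list and contrast, the nearest tested gene on each side, the 2 called genes next in order of fall, and the 3 genes most alike; others are said to have been chosen after their values were seen. Groups came from the deposited labels, and replicates are separate samples by their titles. The sample titles gave replicate numbers and named no pairing. In pDCs same-numbered WT and cKO libraries deviated together (r = 0.31, 0.392 and 0.206), which may reflect a pairing. The main fit left the replicate number out, and the block gave 335 calls in pDCs in place of 119. Alternatives were other pseudocounts (0.5 and 0.1), filters, scalings, FPKM, no trend, adjusted p of at most 0.05, the replicate block and each library left out. The number of reads per library was estimated from the steps between low values. Promoter sequences came from RefSeq (GRCm38.p6). Results of 1 named gene and 1 gene list are not reported here.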

Additional observations from a re-analysis of the deposited data

Results flagged for a closer look

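Jade1 and Prodh were lower in every cKO pDC library than in any WT one, an order that held for 16.7% of tested genes. In cDC1s both were higher in every cKO library, an order that held for 52.1% of tested genes. Their cDC1 log2 fold changes were 0.55 for Jade1 and 0.58 for Prodh, neither called, beside a median of 0.17 for all genes. Arhgef10l was lower in every cKO pDC library and higher in every cKO cDC2 library, the latter an order that held for 16.3% of tested genes. Its cDC2 log2 fold change was 1.30, a call lost in the settings given above. The difference between the subsets was not tested for these 3 genes, because the pDC and cDC values came in separate tables, and the pDC falls are those by which the genes were chosen.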

How the results depend on the processing

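In pDCs, 119 genes were called. The count was 56 without the mean-variance trend, 24 with no filter on low values, 514 at a looser threshold (adjusted p up to 0.05 and any fold), and 12 to 97 with 1 library left out, 12 being without WT pDC replicate 3. In cDC1s (2555 calls) the looser threshold gave 4522 genes and 2 members, the fit without trend 1 member, and leaving out a library 800 to 2888 genes. In cDC2s (816 calls) the looser threshold gave 2274 and leaving out a library 316 to 907, with 0 to 1 member called. Arhgef10l, the 1 member called there, was left out of the test by a filter at a mean TPM of 5. It was not called with no filter or a pseudocount of 0.1. The effect difference between cDC1s and cDC2s (292 calls) gave 1286 genes and 1 member at the looser threshold, and 77 to 282 genes with a library left out. WT cDC1s against WT cDC2s (3612 calls) gave 5557 at the looser threshold and 2649 to 3575 with a library left out, with 0 to 5 members. Of the members, 3 were called with the filter at 5, which left Prodh and Arhgef10l out of the test, and 3 with quantile normalization. The cause of the other changes was not tested. A cDC1 genotype left with 1 library was assumed to vary like the other groups.

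With the replicate number as a block, the calls were 335 in pDCs, where same-numbered libraries deviated together. The cDC numbers did not pair the samples (r = −0.233 in cDC1s and −0.249, 0.253 and −0.165 in cDC2s), and not every sample correlated best with its own number. There the block gave 356 calls and 0 members in cDC2s, 95 for the effect difference, and 2118 with 1 member for WT cDC1s against WT cDC2s. Crossing the cDC1 numbers, chosen after seeing the data, gave 423 and 0, 111, and 2324 and 2.

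Changes near 0 changed sign. The Mpc1 effect difference was −0.04 with FPKM, −0.16 with median-of-ratios scaling and −0.10 with quantile normalization. With 1 library left out, the ranges were −0.13 to 0.12 for Scrn2 in pDCs, −0.11 to 0.09 for Mpc1, −0.11 to 0.07 for Mpc2 and −0.34 to 0.00 for Arhgef10l in cDC1s, and −0.22 to 0.03 for Mpc1 and −0.02 to 0.19 for Mpc2 in cDC2s. For the effect difference they were −0.04 to 0.21 for Mpc1 and −0.21 to 0.00 for Mpc2. At the estimated depth, 1 TPM on 2000 bases is 16.8 to 22.0 reads, which limits Scrn1 and Arhgef10l in cDC1s.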
